A study of Mus musculus with 8 samples.

Results

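Broad H3K27Ac domains were the peaks of 10 kb or more in the H3K27Ac ChIP-Seq table of mouse heart ventricles at postnatal day 7 (P7), and 716 of the 45987 peaks (1.56%) met this width. Width was the only criterion, and no difference between the groups was used to choose the members. Peak calling links width and level, so the members were not chosen free of level. H3K27Ac was profiled in 2 *Arid1a f/f* controls, which carried the floxed alleles without Cre, and in 2 *αMHC-Cre;Arid1a f/f* mutants (*Arid1a cKO*), and each of these 4 hearts also had an input library. The αMHC promoter drives Cre in cardiomyocytes, so the other cells of the ventricle keep *Arid1a*, and in whole ventricles fewer cells of a type cannot be told apart from less mark per cell. Each peak had a mean for the 2 controls and a mean for the 2 *Arid1a cKO* hearts, as log2 normalized reads made by the authors, with no value per heart. No spread between hearts could therefore be computed, no difference was tested, and every difference below (*Arid1a cKO* minus control, log2) describes the 2 group means. A 1.5-fold difference in either direction was used to count peaks as lower or higher.

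Acetylation of histone H3 at this lysine marks active promoters and enhancers. Most marked regions are short, but at some genes the mark runs on for many kilobases, often over clustered enhancers or from a promoter into the gene body, and such stretches are known to lie at genes that set the identity of a cell type. ARID1A is a DNA-binding subunit of the BAF (SWI/SNF) complex, which moves nucleosomes at enhancers and promoters. In heart muscle, MEF2, GATA, TEAD and ESRR proteins are transcription factors that bind such regions.

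The sequences below show what lies inside the domains whose group means were furthest apart, 3 with the most negative and 3 with the most positive difference. A second *Emilin2* domain tied with the *Ppil1* domain at −1.51, and its window is not printed. Each window has 30 bases and is centred on the core nearest to the centre of the domain that reads CATTCC, the letters read by TEAD factors, on the strand given. Capitals mark that core, and the sequence comes from the mm10 assembly (GRCm38.p6). The first 5 windows lie in introns and the last lies outside annotated genes.
Rbfox1 domain (−1.93), chr16:7098427-7098456, minus strand: ctggattgcctcCATTCCagggatggagac
Emilin2 domain (−1.52), chr17:71254363-71254392, minus strand: gtaatctttagcCATTCCttctacaactcc
Ppil1 domain (−1.51), chr17:29255858-29255887, plus strand: ctgtcccctgggCATTCCcagcgctttctc
Ago2 domain (0.86), chr15:73159186-73159215, minus strand: cacaaatgtaatCATTCCatctcagcctcc
Itga1 domain (0.93), chr13:115017797-115017826, plus strand: tgctcatctgtcCATTCCgtccaagttatc
Domain nearest to 4930479D17Rik (0.95), chr6:146676873-146676902, plus strand: tttagaaaagttCATTCCtttattactaac

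Each window was chosen to hold the CATTCC core, so its presence in domains with opposite differences says nothing about those differences. The *Rbfox1* and first *Emilin2* domains had 13 such cores each and the *Ppil1* domain had 9, while the *Ago2*, *Itga1* and *4930479D17Rik* domains had 3, 8 and 1. Over all domains, counted on both strands, the TEAD core occurred 0.618 times per kb, against 0.612 per kb in all placed peaks. It occurred 0.637 times per kb in the domains that were lower by 1.5-fold or more and 0.578 per kb in those that were higher. Nearly every domain held it (99.9%), against 65.4% of all peaks, most of which are much shorter.

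The other cores were counted in the same way. The GATA core (AGATAA) occurred 0.511 times per kb in the domains and 0.538 in all peaks, the ESRR core (AAGGTCA) 0.238 and 0.230, and the E-box CACGTG 0.160 and 0.167. In the 44 lower domains against the 666 between the limits, GATA cores occurred 0.438 and 0.515 times per kb and E-boxes 0.207 and 0.158, differences that were not tested. The MEF2 core was the rarest, at 0.0258 per kb in domains and 0.0334 in all peaks, and 33.2% of domains held at least 1. It was present in 15 of the 44 domains that were lower by 1.5-fold or more, in 223 of the 666 between the limits and in 0 of the 6 that were higher, where 6 domains are too few to read a share from. GC content was alike as well, with a median of 48.8% in the domains and 48.1% in all peaks. A match to these letters is a description and not a bound site.

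Domains carried more mark per base than other peaks, not only more bases, though peak calling links width and level. They covered 10.96 Mb, or 9.85% of the length of all peaks, and took 15.8% of all normalized reads in the control mean and 15.5% in the *Arid1a cKO* mean. Their widths ran from 10006 to 70351 bp with a median of 12995.5 bp. The median control level was 73.6 normalized reads per kb in the domains, 57.0 in the 3112 peaks of 5 to 10 kb and 22.3 in the 42159 peaks under 5 kb. The 10 kb limit cut a continuum: the level per kb climbed through the width classes on both sides of it. The 3 peaks just under the limit lay in *Ablim1* (9977 bp, difference −0.06), *Myo1d* (9987 bp, −0.07) and *Decr1* (9999 bp, 0.09), and the 3 narrowest domains lay in *Itgb5* (10006 bp, 0.04), *Spry1* (10008 bp, 0.20) and *Itga7* (10009 bp, −0.45).

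**Figure D1:**
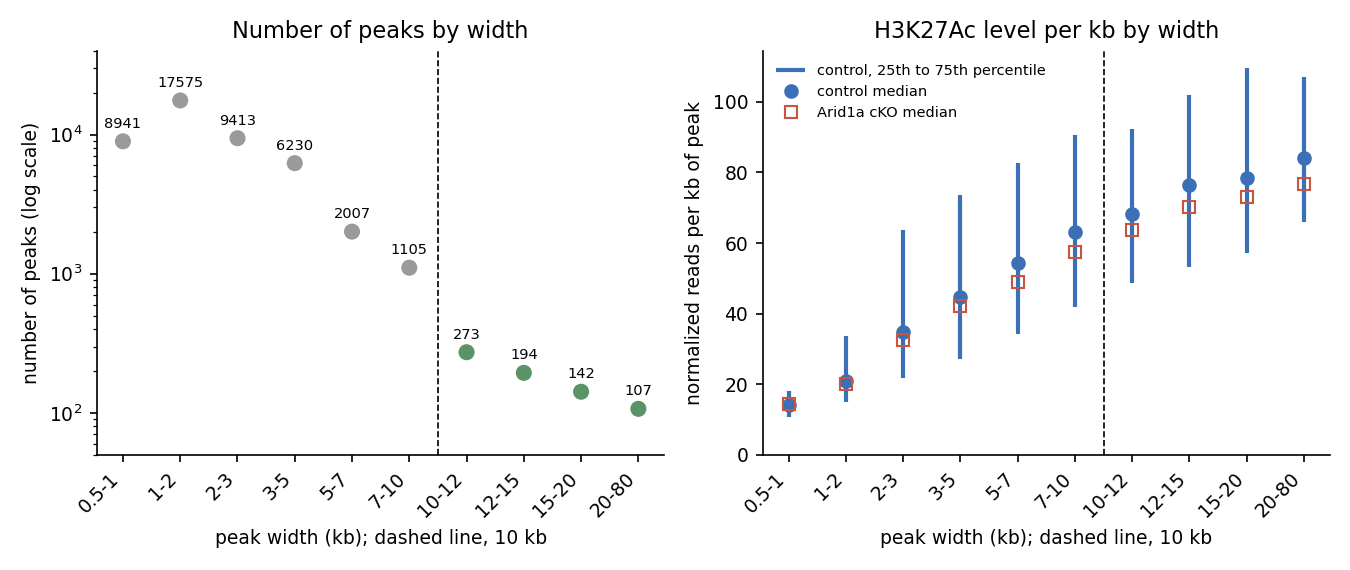
Number of peaks (left, log scale) and normalized H3K27Ac reads per kb (right) by peak width in kb, with the 10 kb limit dashed; green points on the left are domains, and on the right circles are control medians, lines their 25th to 75th percentiles over peaks and squares *Arid1a cKO* medians. The control median per kb goes from 14.2 in peaks of 0.5 to 1 kb to 84.0 in domains of 20 kb and over, with no step at 10 kb.

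The domains lay mostly over genes, from the promoter into the gene body. A RefSeq transcription start lay inside 405 of 716 domains (56.6%), against 39.2% of the 5 to 10 kb peaks and 24.7% of the narrower ones. A wider region is more likely to hold a start by its size alone, and this was not corrected for. In the 344 domains with the start of exactly 1 protein-coding gene, the domain reached a median of 2.44 kb upstream and 10.2 kb downstream of that start, and 279 of them (81.1%) extended further downstream than upstream. Where the gene had several starts inside the domain, the most upstream one was used. This choice favours the downstream side and was not corrected for. These domains covered a median of 31.4% of the gene that overlapped them most, which was not always the gene with the start. Of the 311 domains without a start, 237 lay mostly inside a gene body and 66 touched no gene. Introns made up 72.4% of domain sequence, exons 6.53% and sequence outside genes 21.1%, against 57.2%, 7.78% and 35.0% for all peaks.

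A total of 500 genes had a start in a domain, 1.91% of the 26180 annotated genes and 3.71% of the 13464 genes with a start in any peak. Density along the genome was uneven, from 0.586 domains per Mb on chromosome 19 and 0.541 on chromosome 11 to 0.137 on chromosome 3 and 0.0117 on the X chromosome, which had 2. Domains also lay near each other, with another domain within 50 kb for 230 of them and within 10 kb for 112.

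The widest domain covered the shared promoter of *Col4a1* and *Col4a2*, which encode the chains of basement membrane collagen, at chr8:11248438-11318788 (70351 bp), with 4068 normalized reads in the control mean and 4300 in the *Arid1a cKO* mean (0.08). *Adam19*, a membrane metalloprotease, followed with 70224 bp and 6339 reads in both means (0.00). Both group means were thus nearly equal at the 2 widest domains. *Tns1*, which encodes the focal adhesion protein tensin, held the next (59209 bp) and a further one of 43748 bp inside its gene body, and these had lower *Arid1a cKO* means, by −0.53 (3040 to 2106 reads) and −0.42 (3956 to 2957 reads). *Fhod3*, a formin that builds thin filaments of the sarcomere, had a domain of 47588 bp with a difference of −0.40, and *Rbm20*, a splicing regulator of titin, one of 47513 bp with −0.21. Of the other 4 among the 10 widest, *Actn4*, a non-muscle alpha-actinin, had the one positive value (47411 bp, 3929 to 4804 reads, 0.29), and *Col4a2* (46570 bp, −0.02), *Zfp710* (43062 bp, −0.04) and the calcium pump gene *Atp2a2* (42703 bp, −0.12) lay closer to 0.

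The domains with the most mark per base were at other genes. *Tnrc18* had 346 normalized reads per kb in both means (0.00), and the domain over the starts of *Rhof* and the histone methyltransferase gene *Setd1b* had 334 in the control mean and 297 in the *Arid1a cKO* mean (−0.17). A domain near *Mir23a* followed with 215 reads per kb and a difference of −0.06. The next were at *Irf2bp2*, a transcriptional co-repressor (209 per kb, −0.32), *Ptpa*, an activator of a protein phosphatase (203 per kb, 0.06), *Txnip*, a regulator of glucose uptake (199 per kb, −0.04), *Myl12a* and *Myl12b*, the non-muscle myosin light chains (195 per kb, −0.09), *Qk*, an RNA-binding protein (188 per kb, −0.23), and *Crip2*, a LIM protein (184 per kb, −0.34). The tenth was *Gja1*, the main connexin of ventricular gap junctions, with 181 reads per kb in the control mean and 140 in the *Arid1a cKO* mean (−0.37). Among these 10 genes or gene pairs, 8 had a negative difference, against 61.0% of all domains. With summed reads set equal, the domains near *Mir23a* and at *Txnip* lay above 0. The 10 were picked by the control mean, which is subtracted in the difference, so no direction was read from this count.

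Over all 716 domains, both group means were close. The median difference was −0.06, with 437 domains below 0, 19 at 0 and 260 above, against a median of 0.01 over all peaks. The middle part of the domains, from the 25th to the 75th percentile, ran from −0.26 to 0.07, and the whole range from −1.93 to 0.95. The sign of this median depended on how the libraries were put on one scale: with the summed reads of all peaks set equal in the groups it was 0.02, and 326 domains lay below 0 and 390 above. The median alone therefore gave no stable direction.

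The large differences were fewer in domains than elsewhere and mostly negative. The *Arid1a cKO* mean was lower by 1.5-fold or more in 44 domains (6.15%), against 17.3% of all peaks, and higher by that much in 6 (0.838%), against 12.0% of all peaks. At 2-fold, 7 domains were lower and 0 were higher, against 10.6% and 4.57% of all peaks. With summed reads set equal, 32 domains were lower and 10 higher by 1.5-fold, so that the lower ones made up 76.2% of the domains past the limit in place of 88.0%. Over all peaks the lower ones made up 59.0% of those past the limit, and 51.3% with summed reads set equal.

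The contrast with all peaks went with the level of the peaks. Among peaks with a mean level of 8 to under 9 log2 units, 15.4% of the 78 domains were lower by 1.5-fold or more, against 12.5% of the 1246 peaks of 5 to 10 kb and 2.60% of the 2386 narrower peaks. From 9 to under 10 the shares were 8.24% of 279 domains, 5.26% of 780 and 0.691% of 434. From 10 to under 11 they were 3.37% of 267 domains, 0.629% of 159 and 0 of 20. The shares that were higher by 1.5-fold or more were 5.13%, 1.77% and 0.251% from 8 to under 9 and 0.717%, 0.256% and 0 from 9 to under 10. At matched total reads per peak, domains thus had the larger shares past the limit in both directions up to 10 log2 units. From 10 to under 11 they had the larger share on the lower side. No test was made for these differences. None of the 87 domains at 11 log2 units and over passed the 1.5-fold limit. Peaks matched in this way were not matched per base. From 8 to under 9, the median control level was 35.3 reads per kb in domains, 56.6 in peaks of 5 to 10 kb and 110 in narrower peaks. The narrow peaks of these levels were mostly promoters: 78.2% of those at 8 to 9 held a start, against 32.1% of the domains, and its part in these shares was not tested.

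**Figure D2:**
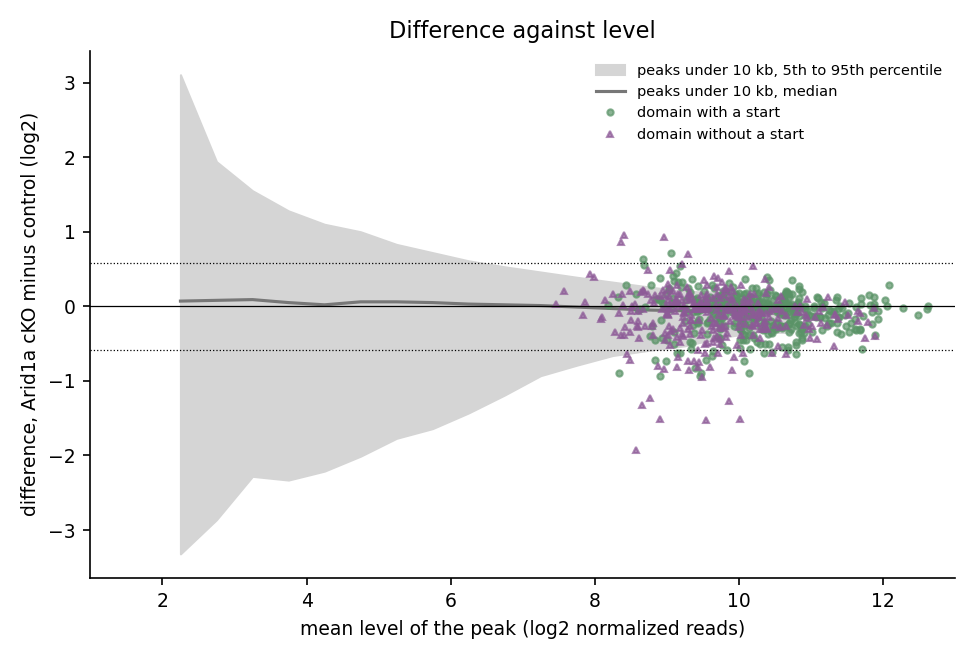
Difference between the group means (*Arid1a cKO* minus control, log2) against the mean level of each peak (log2 normalized reads). Points are the 716 domains, with (circles) or without (triangles) a transcription start; the grey band holds the 5th to 95th percentile of peaks under 10 kb in level steps and the dotted lines mark 1.5-fold. The domains sit at the high end of the levels, and the values from −1.93 to −1.23 all belong to domains without a start.

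Domains without a start held the largest differences. The 7 domains that were lower by 2-fold or more all lay away from any start. By 1.5-fold, 27 of 311 domains without a start (8.68%) and 17 of 405 with one (4.20%) were lower, and 4 and 2 were higher. The median difference was −0.08 without a start and −0.04 with one. The median control level differed too, at 820 normalized reads without a start and 1235 with one. Its part in these shares was not tested.

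Wider domains had slightly more negative medians. The median difference was −0.03 in the 273 domains of 10 to 12 kb, −0.07 in the 142 of 15 to 20 kb and −0.12 in the 107 of 20 kb and over, of which 77 lay below 0. With the scale set to equal summed reads all these values move up by 0.08. Width and difference were only weakly related over the 716 domains (Spearman correlation −0.07, a description across regions of the same libraries). Counts by density depended on the mean used to order the domains. In 4 classes of 179 domains ordered by reads per kb in the control mean, 12, 15, 10 and 7 were lower by 1.5-fold or more from the lowest to the highest class and 6, 0, 0 and 0 were higher. Ordered by the mean over both groups, 24, 12, 6 and 2 were lower and 5, 1, 0 and 0 were higher. Either order uses values that also enter the difference, so no relation to density was read from these counts.

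The domain furthest below 0 lay within *Rbfox1*, which encodes a splicing regulator of muscle and neurons, at chr16:7093207-7104516. It had 605 normalized reads in the control mean and 159 in the *Arid1a cKO* mean (−1.93). Of the 7 other peaks within 100 kb of its centre, 6 lay below 0 and 4 were lower by 2-fold or more. *Emilin2*, an extracellular matrix glycoprotein, had 2 domains over its gene body, at chr17:71247649-71261159 (1113 to 388 reads, −1.52) and chr17:71282432-71294205 (714 to 251 reads, −1.51). The first of them also reached into *Lpin2*, including exon sequence of that gene. Of the 9 other peaks within 100 kb of the centre of the first, which include the second domain, 7 lay below 0 and 6 were lower by 2-fold or more. The *Ppil1* domain at chr17:29246166-29261131 went from 1541 to 541 reads (−1.51). *Ppil1* encodes a prolyl isomerase of the spliceosome, and the centre of the domain lay 10.3 kb from its start.

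The next 6 domains on this side ranged from −1.33 to −0.93. A domain whose centre lay 173 kb from the nearest start, that of *Frmd6*, had a difference of −1.33, one in *Ip6k3*, an inositol phosphate kinase, −1.27, and one in *Aff1*, a transcription elongation factor, −1.23. *Prkaa2*, a catalytic subunit of the energy sensor AMPK, had a domain with 949 reads in the control mean and 491 in the *Arid1a cKO* mean (−0.95). *Gpr22*, an orphan receptor, and *Kcnk3*, a potassium channel of the resting membrane, were the first with a start inside, at −0.94 (630 to 329 reads) and −0.93 (929 to 488 reads). Every one of these 10 domains was under 15 kb wide.

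The 10 domains furthest above 0 were of low level in controls. Ranking by a difference that subtracts the control mean itself favours such domains. The domain nearest to *4930479D17Rik*, at chr6:146668201-146679338, had 231 normalized reads in the control mean and 446 in the *Arid1a cKO* mean (0.95). *Itga1*, an integrin subunit that binds collagen, had one at chr13:115013205-115025249 with 343 and 653 reads (0.93), and *Ago2*, the effector protein of microRNAs, one at chr15:73152727-73166089 with 234 and 425 reads (0.86). *Col1a1*, the main chain of fibrillar collagen, had a domain over its start at chr11:94932772-94952252 with 405 and 662 reads (0.71). The others were at *Scube2*, a secreted protein (0.70), *Loxl1*, an enzyme that crosslinks elastin (0.56), *Strn*, a scaffold of a phosphatase complex (0.63), *St3gal2*, a sialyltransferase (0.57), *Arhgap23*, a GTPase activating protein (0.54), and *Serpinb6b*, a protease inhibitor (0.54). The *Arhgap23* domain was the exception in level, with 955 reads in the control mean and 1389 in the *Arid1a cKO* mean.

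**Figure D3:**
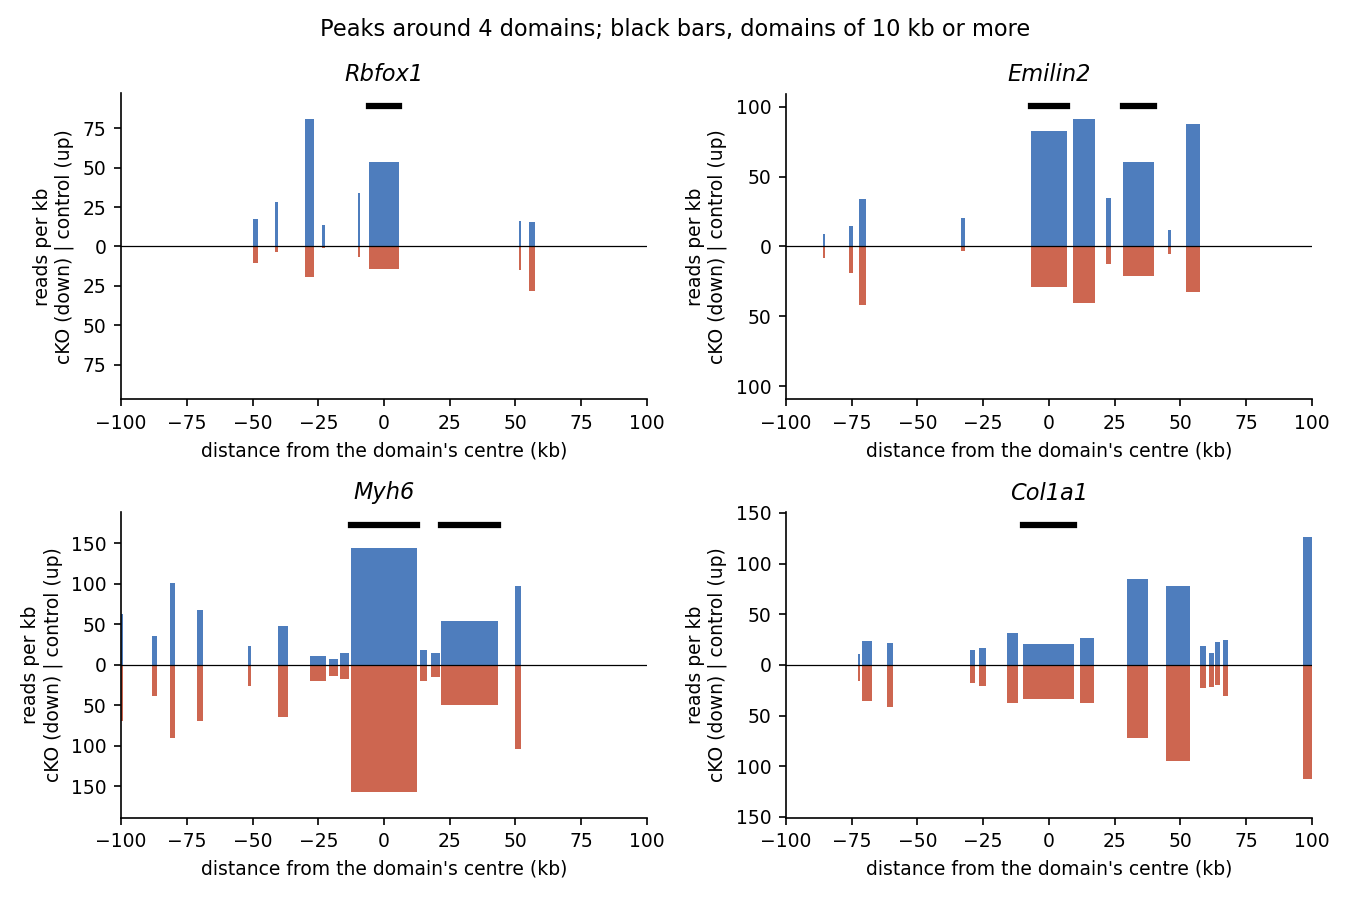
Peaks within 100 kb of the centre of 4 domains, by distance from that centre in kb; the height above 0 is the control mean and the depth below 0 the *Arid1a cKO* mean, in normalized reads per kb over each peak, and black bars mark domains of 10 kb or more. Leaving out the central domain, which was picked by its difference at *Rbfox1*, *Emilin2* and *Col1a1*, 6 of 7 peaks around *Rbfox1*, 7 of 9 around *Emilin2*, 3 of 14 around *Col1a1* and 2 of 13 around *Myh6* lie below 0.

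Narrower peaks around a domain tended to differ in the same direction as the domain. Peaks under 10 kb within 50 kb were present around 715 domains, with a median of 7 each. Near the 44 lower domains, 85 of 297 such peaks (28.6%) were lower by 2-fold or more and 2.02% were higher, and the median of the neighbours' medians was −0.35. Near the 6 higher domains, 13.5% of 37 peaks were higher by 2-fold or more and 2.70% were lower. Near the other 666 domains the shares were 7.45% lower and 4.15% higher. The medians of neighbours lay below 0 at 35 of the 44 lower domains, at 312 of the 666 and at 0 of the 6 higher ones. Across the 715 domains the domain's difference and the median of its neighbours had a Spearman correlation of 0.44, a description across regions of the same libraries in which nearby domains share neighbours.

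**Figure D4:**
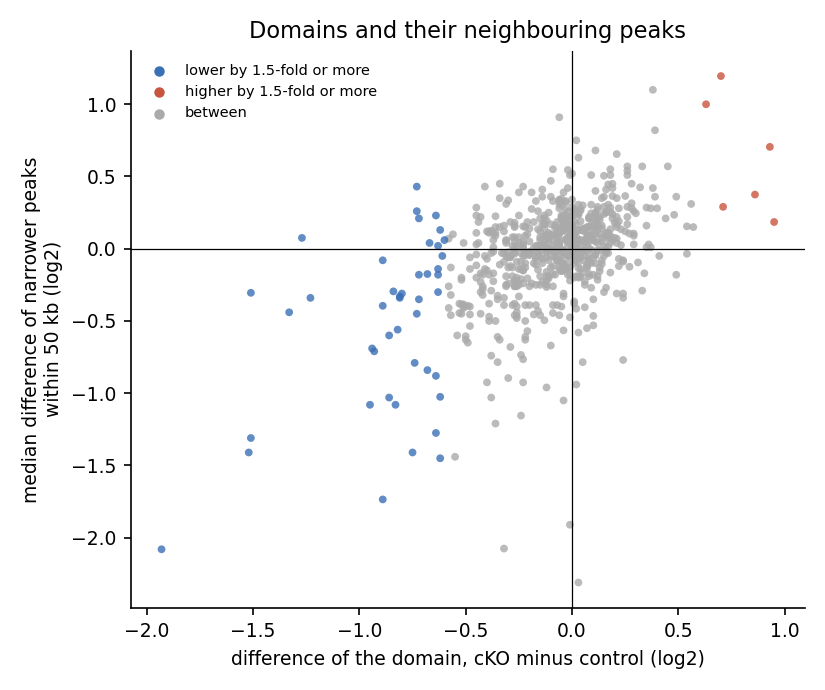
Each point is 1 of 715 domains, with its own difference (*Arid1a cKO* minus control, log2) on the horizontal axis and the median difference of the peaks under 10 kb within 50 kb on the vertical axis. Blue points are the domains lower by 1.5-fold or more, 35 of 44 of them below 0 on the vertical axis, and red points the 6 higher ones, all above it.

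Domains were frequent at genes of heart muscle. Of the genes in each list, 11 of 26 sarcomere genes, 10 of 26 cardiac transcription factor genes, 9 of 24 genes of calcium handling and ion channels and 7 of 24 energy metabolism genes had a start in a domain, and so did 8 of 15 endothelial markers. For comparison, 3.71% of all genes with a start in any peak did. There was a domain at 3 of 15 fibroblast and matrix markers, 2 of 12 targets of YAP and TEAD, 1 of 11 natriuretic and stress genes and 1 of 10 atrial and conduction markers. No domain held the start of any of the 9 smooth muscle, 10 macrophage, 6 epicardial, 12 housekeeping or 14 BAF complex genes. The 8 erythroid genes and the 10 markers of other tissues had no peak of any width at a start.

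The domains of the heart muscle lists lay mostly below 0. Together these 4 lists had 38 domains, of which 33 lay below 0, 2 at 0 and 3 above, with a median of −0.21. Over all domains 61.0% lay below 0, with a median of −0.06. The fibroblast and endothelial lists had 11, of which 3 lay below 0, 1 at 0 and 7 above, with a median of 0.02. With summed reads set equal, 29 of the 38 lay below 0 (median −0.12), 0 of the 11 (median 0.10) and 326 of all 716. This scaling moves every domain by the same amount, so it leaves the gap between these medians as it was and shifts the counts on each side of 0. Past the 1.5-fold limit, 2 of the 38 were lower, *Fhod3* and *Cacnb2*, a share near the 6.15% of all domains. Of the 11, 1 was higher, *Col1a1*, against 0.838% of all domains, and a single domain gives no share to read.

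Among the 11 domains with the start of a sarcomere gene, that of *Myh6*, the adult myosin heavy chain, had the most reads and the only positive difference. It held 3591 normalized reads in the control mean and 3929 in the *Arid1a cKO* mean (0.13, chr14:54951726-54976694). The neighbouring domain at *Myh7*, the fetal myosin heavy chain of mouse ventricle, had 1176 and 1082 reads (−0.12). The group means of both myosin domains were thus near equal. Only the mutants carried the *αMHC-Cre* transgene, and *Myh6* encodes αMHC. Reads from the promoter of the transgene cannot be told apart from reads of the *Myh6* domain. The lowest values were at *Fhod3* (1585 to 1031 reads, −0.62), *Csrp3*, a Z-disc LIM protein (1235 to 838 reads, −0.56), and *Tnnt2*, the cardiac troponin T (1361 to 1010 reads, −0.43). *Actc1*, the cardiac actin (−0.36), and *Ldb3*, a Z-disc protein (−0.35), came next. *Myl2*, *Tnnc1*, *Tpm1* and *Tnni3*, which encode the ventricular light chain, troponin C, tropomyosin and cardiac troponin I, ranged from −0.15 to 0.00. With summed reads set equal, 9 of the 11 lay below 0.

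The *Actc1* promoter is printed because its domain was one of the lower sarcomere domains and the promoter holds a CArG box, the letters read by the serum response factor. The 150 bases before the RefSeq start (chr2:114052876-114053025, minus strand, mm10) carry the box in capitals, beginning 47 bases upstream of the start. Only 0.918% of the 32475 RefSeq promoter windows of this length held a CArG box on either strand. The windows of *Csrp3* (domain −0.56), *Myh7* (−0.12) and *Myh6* (0.13) were scanned in the same way and held none. So few promoters cannot show whether the box goes with the difference of a domain, and this was not tested.
Actc1 promoter: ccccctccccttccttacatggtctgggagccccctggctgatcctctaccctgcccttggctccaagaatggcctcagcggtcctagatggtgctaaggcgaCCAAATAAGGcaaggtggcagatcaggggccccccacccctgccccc

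Of the cardiac transcription factor domains, 9 of 10 lay below 0. The largest differences were at *Hand2* (4012 to 2702 reads, −0.57), *Nkx2-5* (2150 to 1607 reads, −0.42), *Ppargc1a*, the coactivator of mitochondrial genes (1287 to 982 reads, −0.39), and *Gata6* (3517 to 2817 reads, −0.32). *Tbx20* and *Myocd*, the coactivator of serum response factor, both had −0.26. The other 4 lay between −0.13 and 0.01, with *Gata4* (3191 to 3169 reads, −0.01) and *Mef2c* (1053 to 1060 reads, 0.01) nearest to 0, and *Mef2d* (−0.08) and *Meis1* (−0.13) beside them. *Gata4* and *Gata6*, of one family of factors, thus had unlike values. With summed reads set equal, 7 of the 10 lay below 0.

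All 9 domains at genes of calcium handling and ion channels lay below 0, and 8 did with summed reads set equal. *Cacnb2*, a subunit of the L-type calcium channel, had the largest difference (635 to 380 reads, −0.74). *Gja1* (3104 to 2402 reads, −0.37), *Atp1b1*, a subunit of the sodium pump (−0.35), *Pln*, the inhibitor of the calcium pump (3984 to 3373 reads, −0.24), and *Jph2*, which joins the surface membrane to the calcium store (−0.21), followed. The domains at *Cacna1c*, the pore of the L-type channel (−0.13), *Atp2a2* (5997 to 5518 reads, −0.12) and *Ryr2*, the calcium release channel (2006 to 1938 reads, −0.05), were closest to 0. *Atp2a2* thus combined the most reads of the list with a small difference.

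The 7 energy metabolism genes had 8 domains, since *Cd36*, a fatty acid transporter, had 3, and the shared promoter of *Hadha* and *Hadhb*, the enzymes of fatty acid oxidation, had 1. *Mb*, which encodes myoglobin, had the most negative value (3468 to 2817 reads, −0.30). The *Cd36* domains had −0.23, −0.20 and 0.00, and *Fabp3*, the fatty acid binding protein of heart (−0.11), *Idh2*, an enzyme of the citrate cycle (−0.09), *Hadha* and *Hadhb* (−0.06) and *Eno3*, the muscle enolase (0.01), were nearer to 0. With summed reads set equal, 5 of the 8 lay below 0.

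The endothelial domains lay close to 0 on the deposited scale. *Notch1*, a receptor of vessel patterning (1563 to 1746 reads, 0.16), and *Cdh5*, the cadherin of endothelial junctions (1479 to 1618 reads, 0.13), had the highest values. *Eng* (0.07), *Egfl7* (0.02), *Erg* (0.01), *Ets1* (0.00), *Pecam1* (−0.01) and *Kdr* (−0.02) were within 0.07 of 0, and with summed reads set equal all 8 lay above 0. The fibroblast domains were at *Col1a1* (0.71), *Tcf21*, a transcription factor of fibroblasts (416 to 541 reads, 0.38), and *Sparc*, a matrix protein (2120 to 2091 reads, −0.02). *Nr2f2*, an atrial and venous factor, had 0.24, the YAP and TEAD targets *Ajuba* and *Amotl2* had 0.10 and 0.01, and *Fhl2*, a LIM protein of muscle, had −0.45.

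**Figure D5:**
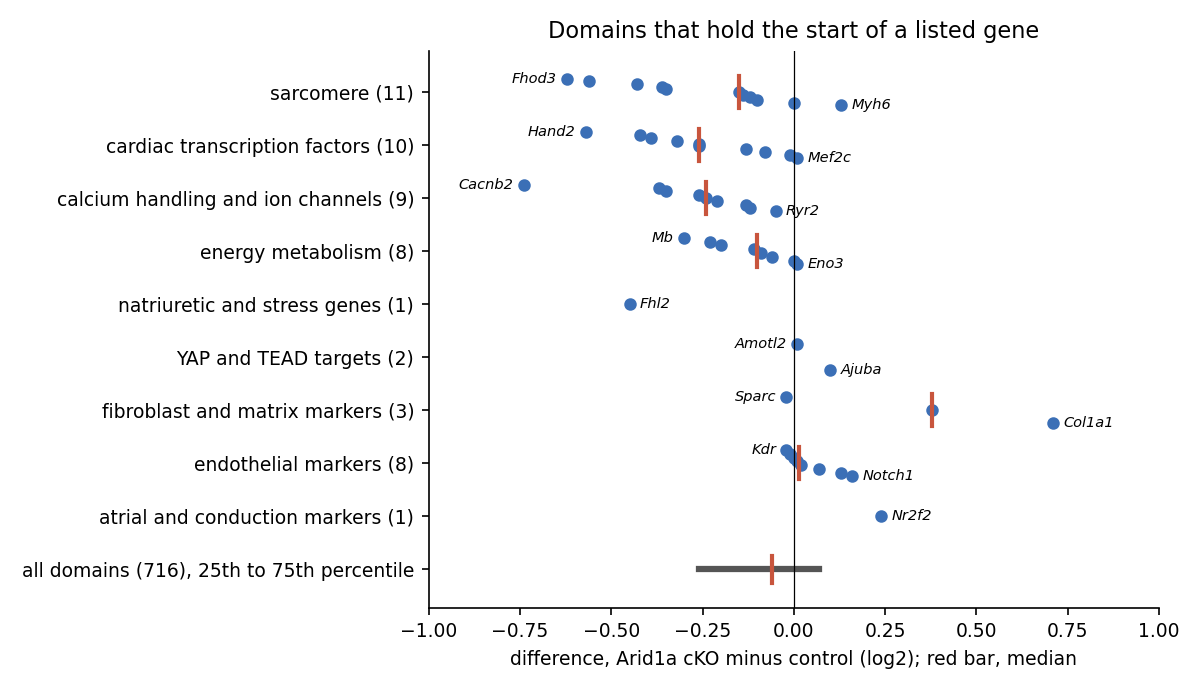
Difference between the group means (*Arid1a cKO* minus control, log2) of each domain that holds the start of a listed gene, 1 point per domain, with the number of domains in brackets, a red bar at the median of lists with 3 or more, and the lowest and highest gene of each list named. The bottom line gives the 25th to 75th percentile of all 716 domains (−0.26 to 0.07); the calcium and channel domains all lie below 0, and the endothelial domains range from −0.02 to 0.16.

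Peaks under 10 kb at the starts of listed genes had medians of the same sign as the domains of their list. The median difference of the narrower start peaks was −0.37 for 13 at sarcomere genes, −0.23 for 21 at transcription factor genes, −0.62 for 17 at calcium and channel genes and −0.18 for 19 at metabolism genes. It was 0.35 for 11 at fibroblast genes and 0.04 for 8 at endothelial genes. For the calcium and channel genes the domains (median −0.24) were thus closer to 0 than the narrower peaks. Some peaks at known stress and contractile genes were under the width limit. The *Nppa* peak of 7324 bp went from 49.5 to 234 reads (2.24), the *Acta2* peak of 5333 bp from 322 to 596 (0.89) and the *Ttn* peak of 9576 bp had −0.22. These peaks were named after values were seen. The 11 narrower start peaks of the natriuretic and stress list had a median of −0.14, with 7 below 0, 4 above and 1 higher by 1.5-fold or more. The 6 of the smooth muscle list, which includes *Acta2*, had a median of 0.105, with 2 below 0 and 4 above. The *Arid1a* promoter peak (8105 bp, 0.05) does not test the deletion, since the mark on a promoter does not show whether the gene is intact.

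Several genes held more than 1 domain. A total of 21 genes met 3 or more domains, a group defined after the values were seen. At 7 of these genes all domains lay below 0, at 2 all lay above 0, and at 12 they were mixed or at 0. For comparison, 61.0% of all domains lay below 0. These counts depended on the scale. With summed reads set equal, the highest domains of *Ldb3*, *Ehd4* and *Trak1* lay above 0, and so did all domains of *Ets1* and *Tcf4*. The 7 included *Fhod3* (−0.62, −0.86 and −0.40), *Jph2* (−0.38, −0.42 and −0.21), *Ldb3* (−0.38, −0.04 and −0.35) and *Ppargc1b*, a coactivator related to *Ppargc1a* (−0.84, −0.38 and −0.27), and the others were *Zmiz1*, *Ehd4* and *Trak1*. The 2 above 0 were *Myh9*, the non-muscle myosin heavy chain (0.09, 0.07 and 0.07), and *Smg6* (0.18, 0.01 and 0.23). Domains of 1 gene could also diverge: the 4 of *Rbm20* had −0.27, −0.21, −0.64 and 0.12. *Nrp1*, a receptor of endothelial cells, had 5 with values from −0.35 to 0.09.

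Some domains cover genes of microRNAs, short RNAs that pair with target messages through bases 2 to 8, the seed. A total of 22 annotated microRNA genes lay in 16 domains, and 16 of them had an entry in the RefSeq sequence table. The lines below give mature sequences from domains of muscle and vessel genes, with the seed in capitals. MiR-195a and miR-497a lie in 1 domain and share their seed.
miR-208b-3p, Myh6 domain (0.13): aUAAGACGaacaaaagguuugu
miR-126a-3p, Egfl7 domain (0.02): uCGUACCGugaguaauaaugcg
miR-195a-5p, Bcl6b and Slc16a13 domain (−0.02): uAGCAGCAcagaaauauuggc
miR-497a-5p, Bcl6b and Slc16a13 domain (−0.02): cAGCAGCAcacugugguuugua

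The domain with *Mir208b*, which lies in an intron of *Myh7*, was the *Myh6* domain described above. *Mir126a*, the microRNA of endothelial cells in *Egfl7*, lay in a domain with 3591 normalized reads in the control mean and 3641 in the *Arid1a cKO* mean (0.02), and *Mir195a* and *Mir497* in one with 2288 and 2257 reads (−0.02). The domain over *Mir1a-1* and *Mir133a-2*, the muscle microRNAs, had the most negative difference of the 16, with 2091 and 1458 reads (−0.52). The domain with *Mir143* and *Mir145a*, which are known from smooth muscle, had 1552 and 1629 reads (0.07).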

How the data were processed

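H3K27Ac ChIP-Seq was made from P7 ventricles of 2 controls and 2 *Arid1a cKO* hearts, with 4 input libraries. The authors aligned the libraries with BWA (0.7.17-r1188, mm10), used findPeaks of HOMER in histone mode against pooled inputs, dropped peaks of a single sample and ran DiffBind and DESeq2 (1.24.0). The submitters' processing notes give HOMER 4.11. How libraries were scaled and inputs treated is not given in the sources used here. The deposited values are log2 means of normalized reads, 1 per group and peak, so depth per library is unknown, counting error cannot be given and the values have no SD. The deposited fold changes, p-values and false discovery rates of the authors' own comparison were not used.

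The members, lists and tests were chosen with earlier results of these data known. Differences were *Arid1a cKO* minus control. Reads were 2 raised to the deposited value, divided by width for levels per kb. Starts came from 45756 curated RefSeq transcripts of GRCm38.p6 (mm10), and the last peak of each of 21 chromosomes lay inside it. Sequence counts skipped 7 peaks on unplaced sequences. Domains named were the 10 widest, the 10 with most control reads per kb, the 10 most negative and 10 most positive, 3 on each side of the limit, and those with the start of a gene on 16 lists (225 genes). A few members met by these rules are counted but not reported here by name. The named microRNA, *Nppa*, *Acta2*, *Ttn* and *Arid1a* values and genes with 3 or more domains were added after values were seen. A domain was named by the coding starts inside, otherwise by the gene covering most of it, otherwise by the nearest start. Interval and motif steps were tested on simulated data. Python 3.11.15, pandas 2.3.3 and numpy 2.4.6 were used.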

Additional observations from a re-analysis of the deposited data

How the results depend on the processing

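No paired analysis was possible because the table holds 1 mean per group and no value per heart, and leaving out a heart could not be done for the same reason. Of 23 alternatives, 12 left the value alike. The number of domains was 1291 at 8 kb, 249 at 15 kb and 1102 when peaks within 1 kb were joined. The median difference was −0.09 at 15 kb and, reversed in sign, 0.0239 with summed reads set equal. At 2-fold, 7 domains were lower and 0 higher, and with summed reads set equal 10 were higher by 1.5-fold. The share of domains with a start was 52.7% with protein-coding transcripts only. The share of reads in domains was 15.5% in the *Arid1a cKO* mean and 22.4% at 8 kb. Centring on the median of all peaks, leaving out X, Y and unplaced sequences, and linking genes by body or nearest start moved no value beyond these limits. A difference cannot be set against the variation between hearts, and width and level are linked by peak calling.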
